A study of Mus musculus with 16 samples.

Results

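The genes described here are 10 endoplasmic reticulum (ER) stress genes, followed in the left lung of mice exposed to second-hand smoke (SHS) before birth, in adult life, or both. They were chosen by name: Hspa5, Hsp90b1, Pdia4, Sdf2l1, Creld2, Dnajb9, Herpud1, Xbp1, Atf4 and Ddit3. All 10 were on the array, at 21 of the 45037 probe sets tested and among 18193 named genes. RNA came from male Balb/c mice 15 weeks old, hybridised to Affymetrix mouse expression arrays, with 4 arrays per group that the labels call biological replicates. In each group name the first letter is the in-utero exposure and the second the adult one, where A means filtered air and S means SHS. AA mice breathed air at both times, AS mice SHS only as adults, SA mice SHS only in utero, and SS mice SHS at both times. The smoke was sidestream cigarette smoke at a particle load of 10 mg/m3, given 5 hours daily and 7 days weekly. No allele or transgene was carried by any group, and the sources used here do not give litters, collection hours or processing batches.

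The ER folds secreted and membrane proteins, and unfolded protein there sets off the unfolded protein response through 3 sensors, PERK, IRE1 and ATF6. PERK slows translation and raises the transcription factor ATF4, IRE1 splices the Xbp1 message, and ATF6 is cut to release a transcription factor. Together they raise chaperones, folding enzymes and the machinery that sends misfolded proteins to the proteasome. In lung the response is best known in secretory cells, such as the alveolar type 2 cells that make surfactant, club cells and plasma cells.

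Many ER stress genes carry a sequence called the ER stress element (ERSE) just upstream of the transcription start, and the matches in the 10 genes are shown first because these promoters hold 2 forms of it. No relation between an element and a difference in expression was tested. Upstream sequences came from RefSeq (GRCm38.p6), and all 10 genes had one. The ERSE was searched as CCAAT and CCACG with any 9 bases between them, and the related ERSE-II as ATTGG and CCACG with any 1 base between them, on both strands, in the window from 250 bases before to 50 bases after the start. The 2 elements share the CCAAT (in reverse, ATTGG) and CCACG boxes at different spacing, and no ERSE match overlapped an ERSE-II match in these genes. The lines below give the matches in capitals, with 10 flanking bases for Hspa5, Creld2 and Hsp90b1, and the whole 250 bases for Herpud1, each 5′ to 3′ on the strand of its gene.
Hspa5, chr2:34772015-34772053, plus strand: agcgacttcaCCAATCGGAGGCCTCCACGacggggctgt
Creld2, chr15:88819510-88819548, plus strand: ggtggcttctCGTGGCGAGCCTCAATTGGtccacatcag
Hsp90b1, chr10:86705523-86705666, minus strand: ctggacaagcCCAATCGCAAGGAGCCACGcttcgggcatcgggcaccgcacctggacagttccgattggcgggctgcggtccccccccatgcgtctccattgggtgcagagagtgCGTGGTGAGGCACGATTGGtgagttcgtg
Herpud1, chr8:94386179-94386428, plus strand: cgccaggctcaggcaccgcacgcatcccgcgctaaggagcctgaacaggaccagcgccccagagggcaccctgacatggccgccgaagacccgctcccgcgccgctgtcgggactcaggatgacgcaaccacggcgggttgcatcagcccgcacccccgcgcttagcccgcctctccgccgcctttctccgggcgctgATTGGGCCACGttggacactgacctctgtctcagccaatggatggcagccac

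The ERSE matched in Hspa5, Hsp90b1 (at 2 places) and Creld2, not in the other folding genes Dnajb9, Sdf2l1 and Pdia4, and in 0.119% of all 32851 promoters of the same length. The ERSE-II matched in Herpud1, 52 to 42 bases before its start, and in 0.0365% of all promoters. Neither TGACGTGG, the core of the unfolded protein response element (0.676% of all promoters), nor TGATGNAAT, a composite of C/EBP and ATF sites (0.965%), matched in any of the 10. Only these exact letters were searched. In the 250 bases before the start, Hspa5 holds tgacgtga, which differs from TGACGTGG in its last base. Herpud1 holds gttgcatca, which read on the other strand differs from TGATGNAAT in its last base. The share of all promoters with such forms was not counted. A match describes the searched letters in this window, and a missing match says nothing about other forms of an element or about binding elsewhere. The same 4 genes matched in the 250 bases before the start alone.

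The deposited values are on the log2 scale, with array medians from 6.9 to 6.93. AS replicates 3 and 4, and SS replicates 1 and 2, differed by 0.072 to 0.098 (root mean square) over the 300 most variable bright probe sets, against 0.313 to 0.739 in the other 22 pairs within groups. Over the 21 probe sets of the ER stress genes they differed by 0.114 to 0.169, within the 0.107 to 0.336 of the other pairs. Both near-identical pairs entered as their mean, as 1 sample each, so the groups held 4 (AA), 3 (AS), 4 (SA) and 3 (SS) samples. Lung markers were bright in every sample, for instance Sftpc of alveolar type 2 cells (at least 15.01) and Scgb1a1 of club cells (at least 14.91). Where a gene had several probe sets, the one with the highest mean over the 14 samples, called the brightest, stands for it. Differences are in log2 units with the standard error of the fit, and a gene is said to rise or fall only where limma's p-value, adjusted over all probe sets by Benjamini-Hochberg, was under 0.05.

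**Figure D1:**
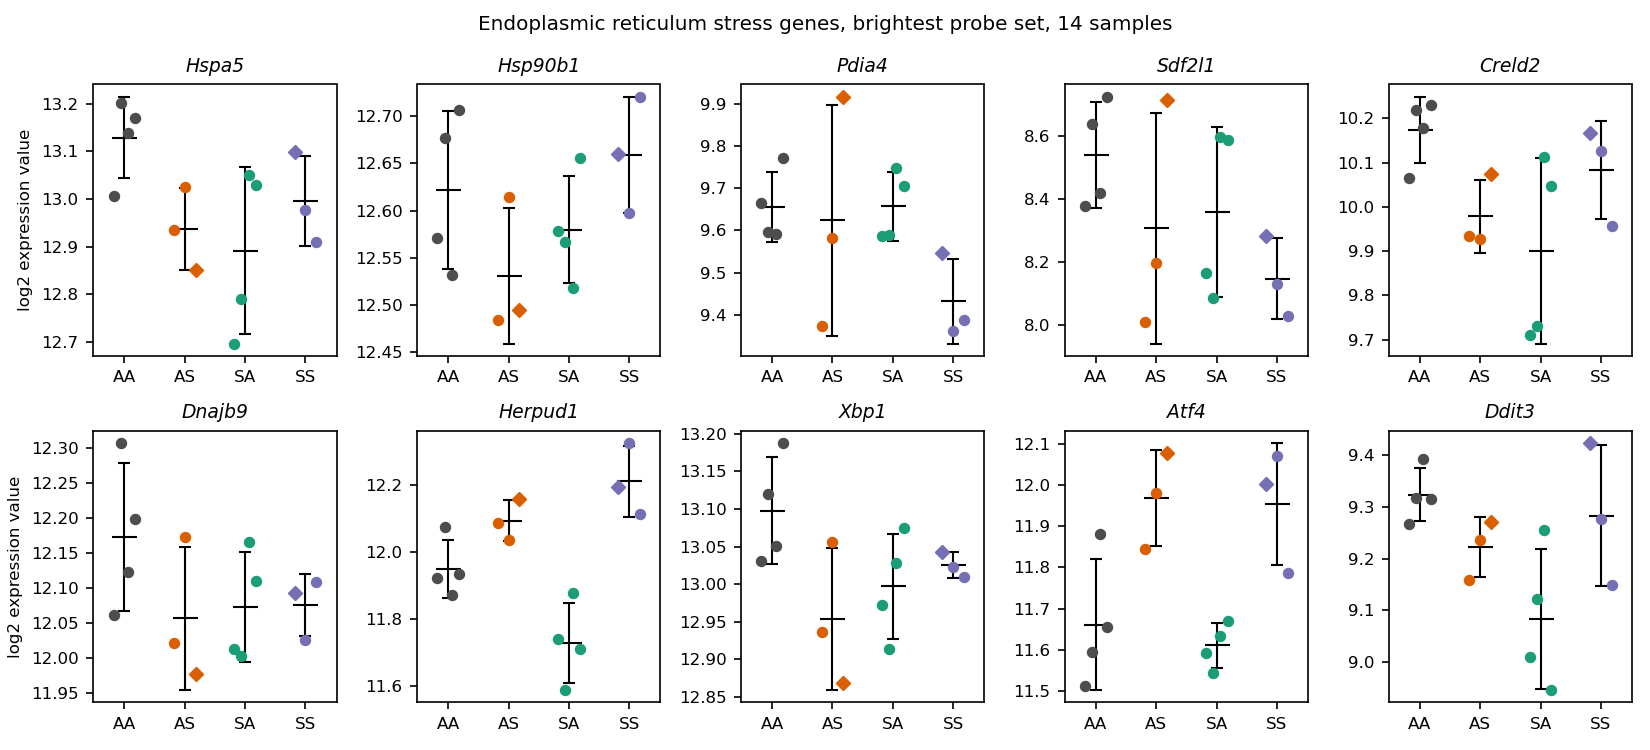
Log2 expression value (vertical axis, a separate range for each gene) of the 10 ER stress genes at their brightest probe sets in the groups AA, AS, SA and SS (horizontal axis). Points are samples, diamonds are averaged array pairs, and bars give the mean and SD (n = 4, 3, 4 and 3). All SS points of Herpud1 lie above all SA points, as at 7.97% of all probe sets tested. For Atf4 the AS and SS means (11.97 and 11.95) lie above those of AA and SA (11.66 and 11.61).

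Herpud1 encodes an ER membrane protein with a ubiquitin-like domain that takes part in ER-associated degradation, the export of misfolded proteins to the proteasome. Its values were 11.92, 12.07, 11.87 and 11.94 in AA, and 12.09, 12.04 and 12.16 in AS, where the last is the averaged pair. In SA they were 11.74, 11.59, 11.88 and 11.71, and in SS 12.20 (averaged pair), 12.33 and 12.11. All SS samples were above all SA samples, as at 7.97% of all probe sets tested, while AA and AS overlapped. At the other Herpud1 probe set all AS samples lay above all AA samples, as at 8.73% of all probe sets tested. There all SA samples lay below all AA samples, as at 1.69%.

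Herpud1 rose by 0.48 ± 0.08 in SS against SA, or 1.40-fold (limma, adjusted p = 0.00719, n = 3 and 4). Its other probe set rose by 0.56 ± 0.07, or 1.48-fold (limma, adjusted p = 0.00164). These were the 2 of 21 probe sets of the 10 genes called in this comparison, where 1.64% of all probe sets tested were called, 0.773% as higher. The call at the brightest probe set depended on SS replicate 3, without which the difference was 0.43 with an adjusted p of 0.0597, while the other probe set passed without any single sample. Between AS and AA the difference was 0.14 ± 0.08 at the brightest probe set (limma, adjusted p = 0.317) and 0.15 ± 0.07 at the other.

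The order of the Herpud1 group means was SS (12.21), AS (12.10), AA (11.95) and SA (11.73). No neighbours in this order differed at the threshold. SS exceeded AS by 0.12 ± 0.08 (limma, adjusted p = 0.564), and SA minus AA was -0.22 ± 0.07 (limma, adjusted p = 0.726). All SS samples lay above all AA samples, as at 7.13% of all probe sets tested, and that difference of 0.26 ± 0.08 did not pass (limma, adjusted p = 0.222). The other probe set had 0.33 ± 0.07 there and did not pass either (limma, adjusted p = 0.0729). Whether adult SHS acted differently after the 2 in-utero exposures was tested as the interaction, the SS minus SA difference less the AS minus AA difference. It was 0.34 ± 0.11 for Herpud1 (limma, adjusted p = 0.322) and 0.41 ± 0.10 at the other probe set (limma, adjusted p = 0.167). The larger Herpud1 difference after in-utero SHS was thus not shown to differ from that after in-utero air.

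Atf4 encodes the transcription factor that PERK signalling raises, largely through translation of its message. Its values were 11.51, 11.60, 11.88 and 11.66 in AA and 11.85, 11.98 and 12.08 in AS. In SA they were 11.59, 11.55, 11.63 and 11.67, and in SS 12.00, 12.07 and 11.79. All SS samples lay above all SA samples, as at 7.97% of all probe sets tested, while AA and AS overlapped through AA replicate 3. The difference was 0.31 ± 0.09 in AS against AA (limma, adjusted p = 0.101) and 0.34 ± 0.09 in SS against SA (limma, adjusted p = 0.0869), and neither passed. The second brightest Atf4 probe set had -0.08 ± 0.18 and 0.29 ± 0.18 in these comparisons, the first of opposite sign. The dimmest had 0.36 ± 0.10 and 0.20 ± 0.10, and neither probe set passed.

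Averaged over both in-utero exposures, which sets 6 samples with adult SHS against 8 in adult air, Atf4 rose by 0.32 ± 0.07, or 1.25-fold (limma, adjusted p = 0.013). Herpud1 rose by 0.31 ± 0.06, or 1.24-fold (limma, adjusted p = 0.00732). In this average 4 of 21 probe sets of the 10 genes were higher and 0 lower, and 5.95% of all probe sets tested were called, 2.82% as higher. The 4 were both Herpud1 probe sets (the other at 0.36 ± 0.05), the brightest of Atf4 and its dimmest, which rose by 0.28 ± 0.07 (limma, adjusted p = 0.0321). That dimmest Atf4 probe set, with 24.6% of probe sets dimmer, lost its call in 8 of the 14 fits that left out a sample, with a lowest difference of 0.235. The second brightest Atf4 probe set, with 92.3% of probe sets dimmer, had 0.10 ± 0.13 and did not pass (limma, adjusted p = 0.638).

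**Figure D2:**
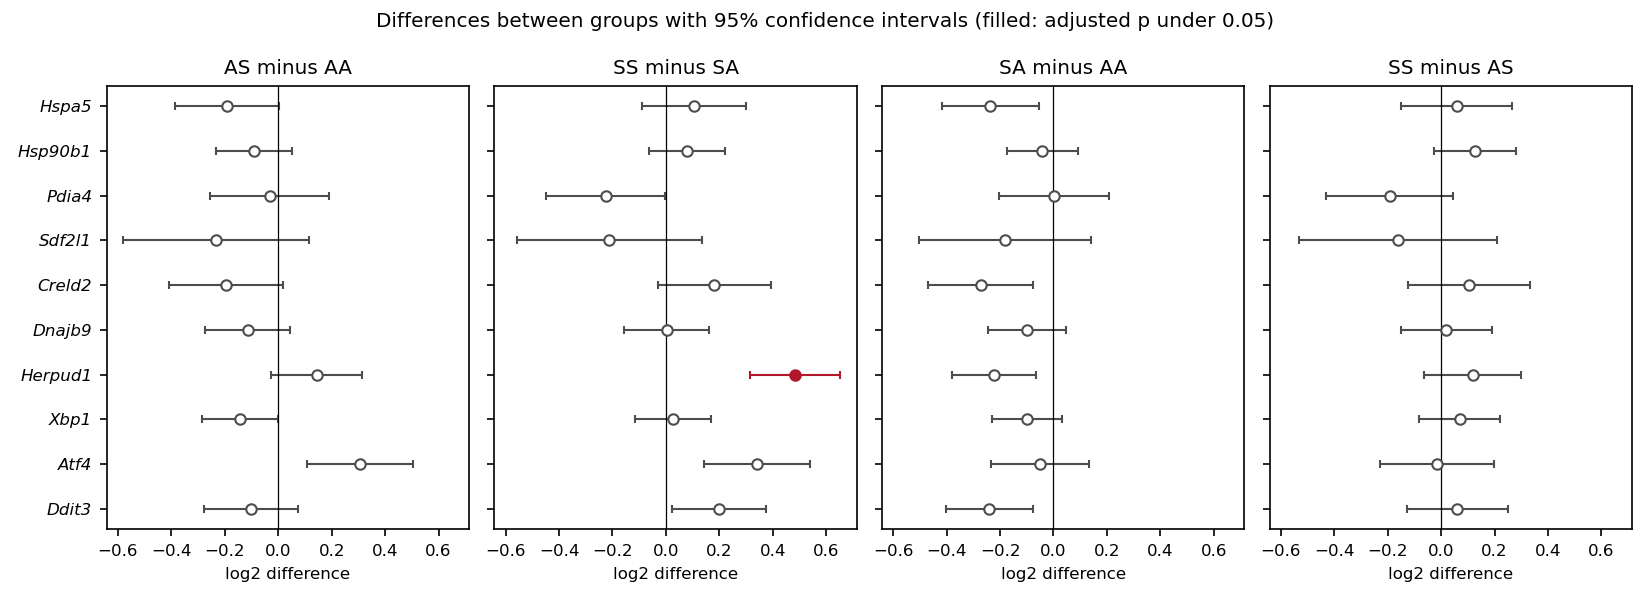
Log2 difference at the brightest probe set of each ER stress gene (vertical axis) in 4 comparisons between groups, with 95% confidence intervals of the limma fit (horizontal bars) and filled points for an adjusted p under 0.05. The filled point is Herpud1 in SS minus SA, at 0.48, while in SA minus AA 9 of the 10 points lie below 0.

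Hspa5 encodes BiP, the main Hsp70 chaperone of the ER, which also holds the sensors inactive. Its values were 13.01, 13.20, 13.14 and 13.17 in AA, 12.94, 13.03 and 12.85 in AS, 12.70, 12.79, 13.05 and 13.03 in SA, and 13.10, 12.98 and 12.91 in SS. The SA samples fell into a lower pair (replicates 1 and 2) and a higher pair, and all groups overlapped. Hspa5 had -0.19 ± 0.09 in AS against AA (limma, adjusted p = 0.252), 0.10 ± 0.09 in SS against SA (0.664) and -0.24 ± 0.08 in SA against AA (0.755). Its second probe set followed the brightest, with -0.20, 0.12 and -0.22 in these comparisons, while the third had 0.15, 0.15 and -0.09.

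Creld2 encodes an ER-resident protein with epidermal growth factor repeats that is induced by ER stress. Its values were 10.07, 10.22, 10.18 and 10.23 in AA, 9.93, 9.93 and 10.07 in AS, 9.71, 9.73, 10.11 and 10.05 in SA, and 10.17, 10.13 and 9.96 in SS. SA replicates 1 and 2 were again the lowest samples. Creld2 had -0.20 ± 0.10 in AS against AA and 0.18 ± 0.10 in SS against SA, and its interaction was 0.38 ± 0.14 (limma, adjusted p = 0.4).

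Sdf2l1 and Dnajb9 encode partners of BiP, the first a component of its chaperone complex and the second a J-domain co-chaperone. Sdf2l1 had 8.38, 8.64, 8.42 and 8.73 in AA, 8.01, 8.20 and 8.72 in AS, 8.17, 8.09, 8.60 and 8.59 in SA, and 8.28, 8.13 and 8.03 in SS. All SS samples were below all AA samples, as at 6.97% of all probe sets tested, and the difference of -0.39 ± 0.16 did not pass (limma, adjusted p = 0.414). In AS the averaged pair stood above the other samples. Dnajb9 stayed between 11.98 and 12.31 over the 14 samples, and its largest difference between any pair of groups was -0.12 ± 0.07, in AS against AA (limma, adjusted p = 0.39).

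Pdia4, a disulfide isomerase of the ER, had 9.66, 9.60, 9.59 and 9.77 in AA, 9.37, 9.58 and 9.92 in AS, 9.59, 9.59, 9.75 and 9.71 in SA, and 9.55, 9.36 and 9.39 in SS. The SS samples lay below all SA samples, as at 8.77% of all probe sets tested, and below all AA samples, as at 6.97%. The group differences were -0.23 ± 0.10 (limma, adjusted p = 0.339) and -0.22 ± 0.10 (0.485), and neither difference passed. Its second, dim probe set had 0.18 ± 0.10 in SS against SA, the opposite sign. In AS the averaged pair was again the highest sample. Hsp90b1, the ER member of the Hsp90 family, stayed between 12.48 and 12.72 with overlapping groups, and its largest difference was 0.13 ± 0.07, in SS against AS (limma, adjusted p = 0.453).

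Xbp1 encodes the transcription factor made active by IRE1 splicing, and these probe sets do not separate the spliced from the unspliced message. It had 13.03, 13.12, 13.05 and 13.19 in AA, 12.94, 13.06 and 12.87 in AS, 12.97, 12.91, 13.03 and 13.08 in SA, and 13.04, 13.02 and 13.01 in SS. The groups overlapped, and the 95% confidence interval of the SS minus SA difference ran from -0.11 to 0.17. In AS against AA it had -0.14 ± 0.07 (limma, adjusted p = 0.243), and all 4 of its probe sets were below 0 there, from -0.21 to -0.06.

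Ddit3 encodes CHOP, the transcription factor linked to cell death under prolonged ER stress. Its values were 9.27, 9.32, 9.39 and 9.32 in AA, 9.16, 9.24 and 9.27 in AS, 9.01, 9.12, 9.26 and 8.95 in SA, and 9.42, 9.28 and 9.15 in SS. All SA samples lay below all AA samples, as at 1.69% of all probe sets tested, and the difference of -0.24 ± 0.08 did not pass (limma, adjusted p = 0.726). Between SS and SA the difference was 0.20 ± 0.08 (limma, adjusted p = 0.276). A dimmer Ddit3 probe set had -0.45 ± 0.16 in AS against AA, with all AS samples below all AA samples (as at 7.57% of all probe sets tested), and -0.23 in SS against SA, and did not pass in either.

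Across the list, differences were small. In AS against AA, 0 of 21 probe sets passed (limma, with 1.55% of all probe sets called) and 5 had an unadjusted p under 0.05, against 20.3% of all. The median of the 10 brightest was -0.11, against 0.02 over all probe sets. In SS against SA the median was 0.09, against 0.01 over all, and 5 had an unadjusted p under 0.05, against 14.5% of all. In SS against AS, 0 passed (0.968% called), 1 had an unadjusted p under 0.05, against 13.6% of all, and the median was 0.06. In SS against AA, 0 passed (0.4% called), 7 had an unadjusted p under 0.05, against 10.3% of all, and the median was -0.08.

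The in-utero comparison in adult air, SA against AA, had no call among the 21 probe sets or among all 45037 (limma, 0% called). Here 7 of 21 were lower with an unadjusted p under 0.05, against 3.46% of all probe sets, and 0 were higher, against 2.77%. By gene, the brightest probe sets of Hspa5, Creld2, Herpud1 and Ddit3 were among these, against 2.46% of the brightest probe sets of all genes. Of the 10 genes 9 were below 0, against 47.7% of all genes, and the median was -0.14. The largest was Creld2 at -0.27 ± 0.09 (limma, adjusted p = 0.726). In SA replicates 1 and 2 the mean of the 10 genes relative to AA was -0.23 and -0.24. In replicates 3 and 4 it was -0.03 and -0.08, within the AA range of -0.08 to 0.06. Averaged over adult exposures, in-utero SHS gave 0 calls (0.284% of all), 0 with an unadjusted p under 0.05, against 11.9% of all, and a median of -0.07. The interaction gave 0 calls (0.131% of all), 7 with an unadjusted p under 0.05, all higher, against 5.07% of all in that direction, and a median of 0.17. The SA samples enter SA minus AA, SS minus SA and the interaction, so these 3 are not independent.

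The other genes of the pathway, from 5 lists chosen by known role with earlier results of these data in view, numbered 71 on the array. In AS against AA, 2 of 71 were higher and 0 lower, in SS against SA 2 were higher and 0 lower, in SA against AA 0 passed, in SS against AS 1 was lower, and in SS against AA 0 passed. The interaction and the in-utero average each had 1 lower and 0 higher, which was Ppp1r15a. With adult SHS averaged over in-utero exposures, 5 were higher and 0 lower. For brightest probe sets over all genes, the share called was 1.12% in AS minus AA, 1.91% in SS minus SA, 0% in SA minus AA, 0.764% in SS minus AS, 0.517% in SS minus AA, 0.115% in the interaction, 6.27% in the adult average and 0.225% in the in-utero average. Every gene called belonged to the list of 18 targets of PERK and ATF4, and 0 of 16 other chaperones and folding enzymes, 0 of 12 degradation genes, 0 of 8 sensors and 0 of 17 translocation and transport genes passed in any of the 8 comparisons.

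**Figure D3:**
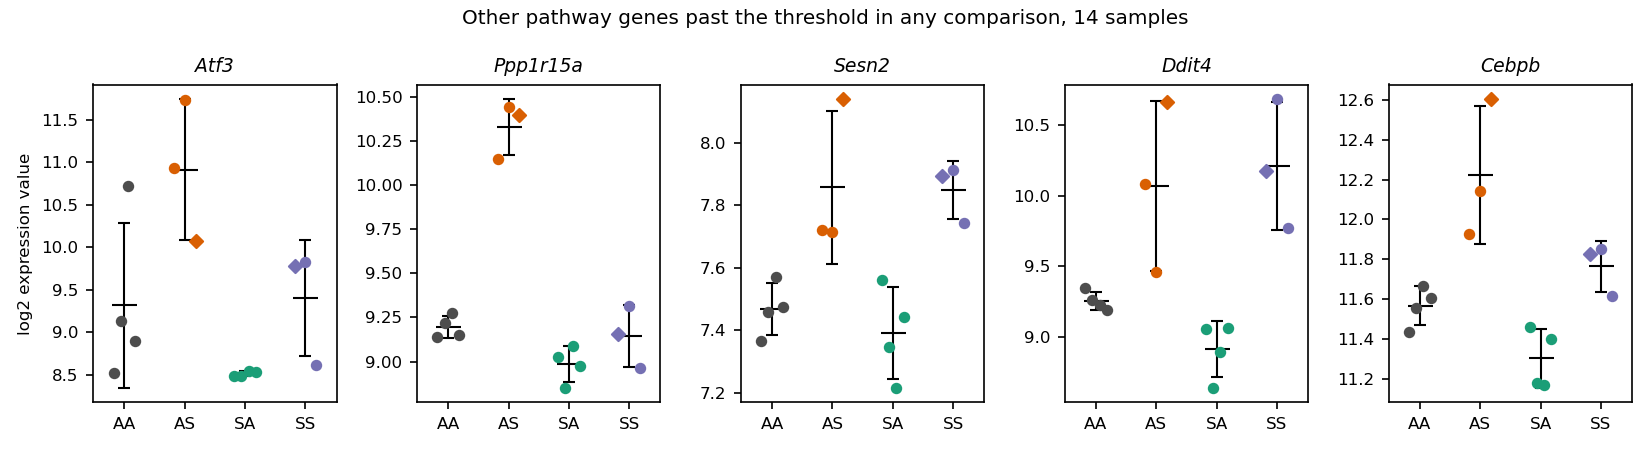
Log2 expression value (vertical axis, a separate range for each gene) of the 5 other pathway genes past the threshold in any comparison, by group, with points for samples, diamonds for averaged array pairs and bars for mean and SD (n = 4, 3, 4 and 3). Ppp1r15a lies between 10.15 and 10.44 in AS and between 8.85 and 9.31 in the other groups.

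Ppp1r15a encodes GADD34, which brings a phosphatase to eIF2 alpha and so reverses the translation block set by PERK. Its values were 9.14, 9.22, 9.28 and 9.15 in AA, 10.15, 10.44 and 10.40 in AS, 9.02, 8.85, 9.09 and 8.98 in SA, and 9.16, 9.31 and 8.97 in SS. The AS samples stood above all others. Ppp1r15a rose by 1.13 ± 0.09 in AS against AA, or 2.19-fold (limma, adjusted p = 0.000152). It had 0.16 in SS against SA, and the interaction passed, at -0.97 ± 0.13 (limma, adjusted p = 0.00822). It was lower in SS than in AS by -1.18 ± 0.10 (limma, adjusted p = 8.65e-05). These calls held in every alternative fit.

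Ddit4, an inhibitor of mTORC1, had 9.35, 9.26, 9.23 and 9.19 in AA, 10.08, 9.46 and 10.66 in AS, 9.05, 8.64, 8.89 and 9.06 in SA, and 10.17, 10.69 and 9.78 in SS. It rose by 1.30 ± 0.23 in SS against SA, or 2.46-fold (limma, adjusted p = 0.0101, and 0.0782 without SS replicate 3), and had 0.81 ± 0.23 in AS against AA (limma, adjusted p = 0.083), or 0.51 without the averaged AS pair. Sesn2, another stress-induced inhibitor of mTORC1, rose by 0.46 ± 0.11 in SS against SA (limma, adjusted p = 0.0444). Leaving out any 1 of 10 samples, or adding the replicate block, ended that call, with differences from 0.40 to 0.52 over the alternatives. Cebpb, a transcription factor of inflammation and stress, rose by 0.66 ± 0.13 in AS against AA (limma, adjusted p = 0.0268), a call lost without AA replicate 1, AA replicate 2 or the averaged AS pair (0.47 without that pair), and with only AA and AS in the fit.

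With adult SHS averaged over in-utero exposures, Ppp1r15a (0.65), Ddit4 (1.06), Sesn2 (0.42), Cebpb (0.56) and Atf3 (1.25 ± 0.32, limma, adjusted p = 0.0368) rose. Atf3, a stress-induced transcription factor that is also an early response gene, ranged from 8.52 to 10.73 in AA and from 10.08 to 11.74 in AS, and its call was lost in 10 of the 14 fits that left out a sample. Other targets of ATF4 did not pass. Trib3, a pseudokinase, had 0.52 ± 0.14 in SS against SA (limma, adjusted p = 0.094) and -0.09 in AS against AA. Chac1, which degrades glutathione, had 0.27 and -0.31, and Asns, asparagine synthetase, 0.08 and -0.16. The median of the 18 targets was 0.07 in AS against AA, 0.12 in SS against SA and -0.07 in SA against AA.

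Among the lists with no call, Manf, a secreted protein made under ER stress, had the largest differences of the chaperone list, with -0.35 ± 0.11 in SA against AA (limma, adjusted p = 0.719) and 0.31 ± 0.12 in SS against SA (0.234), the latter 0.20 without SA replicate 1. Canx, the lectin chaperone calnexin, had -0.30 ± 0.09 in SS against SA (limma, adjusted p = 0.119). The sensor gene Eif2ak3, which encodes PERK, had -0.18 ± 0.08 and -0.19 ± 0.08 in the adult comparisons after in-utero air and SHS (limma, adjusted p = 0.222 and 0.276). In the degradation list Derl3, which is also in the plasma cell list, had -0.21 in SA against AA and 0.22 in SS against SA, and Derl1 had -0.21 in AS against AA, or -0.08 without the averaged AS pair. In the transport list Sec24d had -0.20 in AS against AA, or -0.13 without that pair, and Kdelr2 had -0.17 in SS against SA, or -0.10 without SS replicate 3 and -0.27 without the averaged SS pair.

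**Figure D4:**
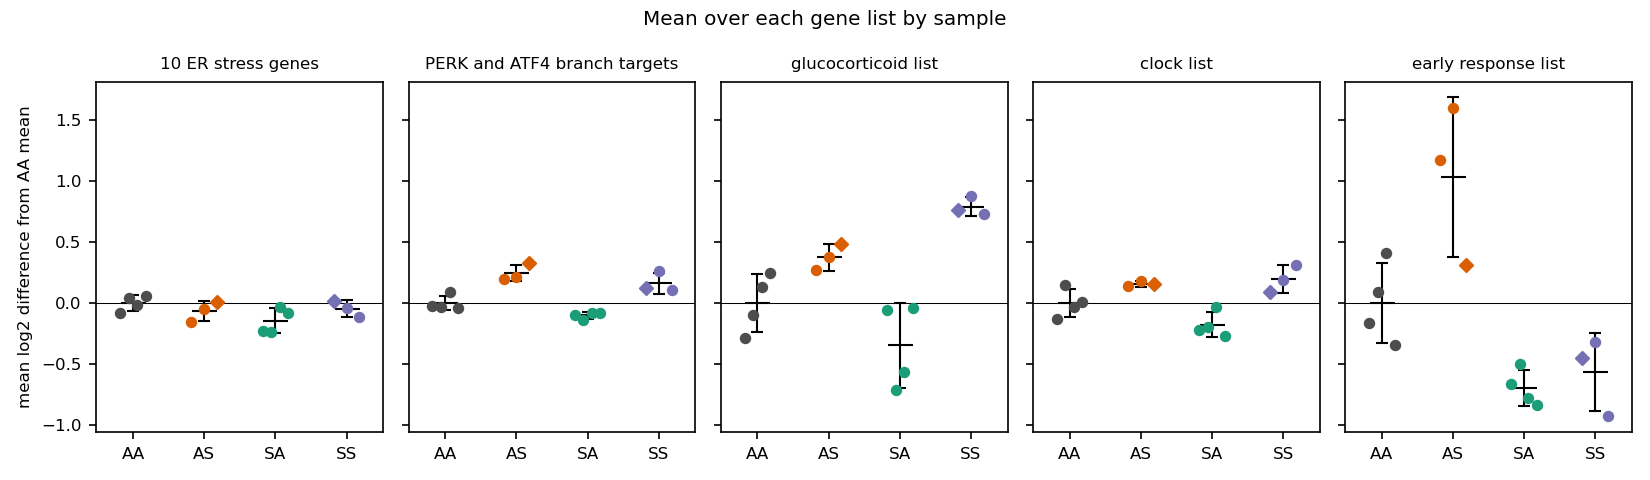
Mean over each gene list of the log2 difference from the AA mean (vertical axis), by sample and group (horizontal axis), for the 10 ER stress genes, 18 PERK and ATF4 targets, 13 glucocorticoid-induced genes, 15 clock genes and 16 early response genes. Points are samples, diamonds averaged array pairs, and bars mean and SD, and the ER stress means stay between -0.24 and 0.06 while the glucocorticoid means reach 0.88 in SS.

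Other gene lists were measured in the same samples, and some had genes past the threshold. Glucocorticoid-induced genes, measured as the list mean relative to AA, were at 0.73 to 0.88 in SS and -0.72 to -0.04 in SA, and 9 of 13 rose in SS against SA (limma). Clock genes were at 0.09 to 0.32 in SS and -0.27 to -0.03 in SA, with 4 of 15 higher and 2 lower. The clock mean thus joins genes called in opposite directions. Early response genes were at 0.31 to 1.60 in AS and -0.34 to 0.41 in AA, with 5 of 16 higher in AS. In SS they were at -0.93 to -0.32. Of the 16, 10 were lower in SS against AS and 10 in the in-utero average, as was Ppp1r15a. In the interaction, where Ppp1r15a was also lower, 0 of 16 early response genes were called, with a list median of -0.96. Markers of plasma cells, which have a large ER, were at -0.55 to -0.30 in SS and -0.20 to 0.02 in SA. Of these, 0 of 8 were higher and 1 lower. Their levels differed widely, for instance 4.76 to 5.46 for Tnfrsf17, 7 to 8.19 for Mzb1 and 8.02 to 10.44 for Jchain. B cell markers were at -0.89 to -0.44 in SS and -0.30 to 0.29 in SA, with 0 of 6 called. Alveolar type 2 markers were at -0.01 to 0.01 in SS and -0.05 to 0.04 in SA, with 0 of 7 called, and at 0.23 in the averaged AS pair. Club cell markers were at 0.12 to 0.19 in AS and -0.12 to 0.09 in AA, with 1 of 6 higher. In SS they were at 0.15 to 0.21 and in SA at 0.003 to 0.08, with 0 called. Goblet cell markers were at 0.15 to 0.30 in AS and -0.26 to 0.21 in AA, with 1 of 6 higher. In SS they were at 0.03 to 0.20 and in SA at -0.07 to 0.18, with 0 called. In the adult average 1 club and 2 goblet markers were higher, and 2 plasma cell markers and 1 ciliated cell marker were lower. In AS against AA 1 plasma cell marker was lower. Cytosolic heat shock genes, which answer misfolding outside the ER, were at -0.07 to 0.08 in SS and -0.33 to 0.25 in SA, with 0 of 12 called. The part of these lists in the ER stress results was not tested, and in whole lung fewer cells of a type and less RNA per cell cannot be told apart.

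The 10 genes did not vary as 1 block. Correlations of their deviations from the group means over the 14 samples had a median Pearson r of 0.32 over 45 pairs, with 6 above 0.7 and 6 below 0. These are descriptions of values that share arrays and their normalization. Hspa5 had r of 0.74 with Dnajb9, 0.73 with Xbp1 and 0.80 with Creld2, and Dnajb9 had 0.78 with Xbp1. Creld2 had lower values with Dnajb9 (0.42) and Xbp1 (0.43), and Sdf2l1 had 0.86 with Pdia4 and 0.84 with Creld2. Herpud1 and Atf4 correlated at 0.74 over all 14 samples and at 0.22 within groups.

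**Figure D5:**
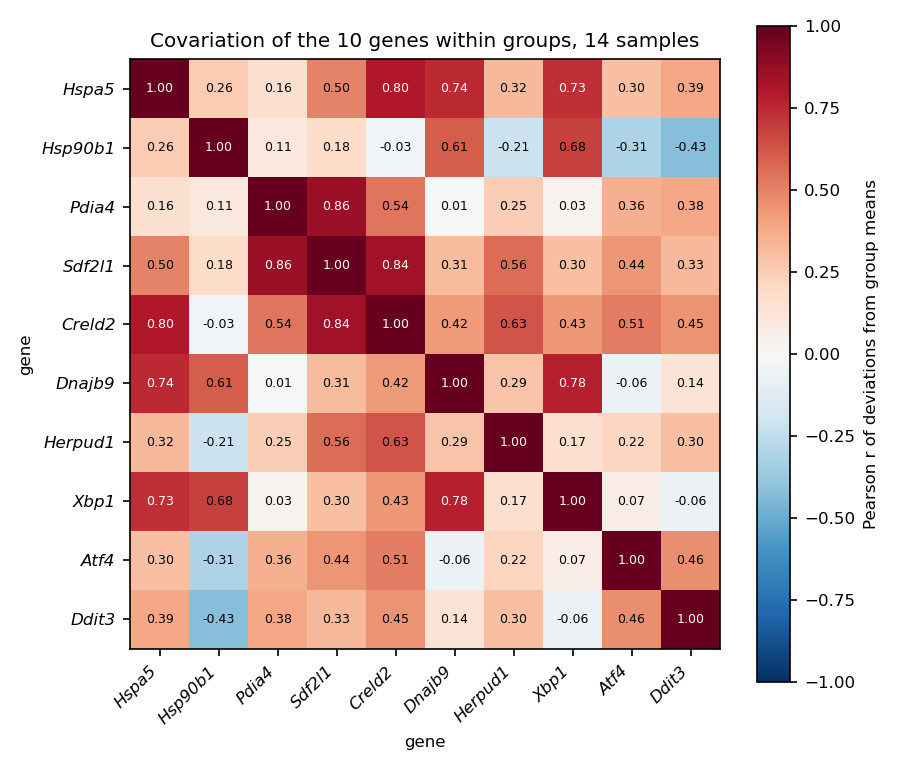
Pearson correlation of the deviations from group means between each pair of the 10 ER stress genes (both axes), over 14 samples, with the colour scale from -1 to 1. The darkest pairs are Sdf2l1 with Pdia4 (0.86), Sdf2l1 with Creld2 (0.84) and Hspa5 with Creld2 (0.80), and the lowest value is -0.43, for Hsp90b1 with Ddit3.

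Genes with the most similar pattern over the 14 samples were sought among 8897 other genes with a mean above 8. For the mean of the 10 genes they were Anxa7, which encodes an annexin (Pearson r = 0.91), Arfgap3, a regulator of Golgi vesicles (0.88), Unc50 (0.85), Slc35b1, a transporter of the ER membrane (0.84), and Manf (0.84). For Hspa5 they were Manf (0.88), Cct3 (0.86) and the cytosolic chaperone Hspa8 (0.83). For Herpud1 they were the clock repressor Cry2 (0.91), Alas1, the first enzyme of haem synthesis (0.90), and Nkd1 (0.89), and within groups these 3 had r of 0.48, 0.66 and 0.60. For Ddit3 they were Pkn3 (0.80), Yif1a (0.74) and Cfap298 (0.74).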

How the data were processed

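The authors deposited 1 log2 value per probe set and array (16 arrays, 2.4 to 15.11), read as log2 from the values. The sources used here do not say how background, normalization or summary were done. Limma alone is named, per the submitters' processing notes. Of 45101 probe sets, 64 controls were left out. Gene names came from the platform annotation, updated through Entrez identifiers to a RefSeq table (GRCm38.p6): 34945 probe sets had 1 symbol, 932 several and 9160 none. List genes without a matching probe set were left out.

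A mean per group was fitted to 14 samples in R 4.3.3 using limma 3.58.1 (lmFit, then contrasts.fit, then eBayes; 10 residual degrees of freedom), two-sided, adjusted by Benjamini-Hochberg over 45037 probe sets, threshold 0.05. The code was tested on simulated data. Nothing beyond the word biological says which arrays came from separate animals, so p-values measure only the spread between these samples, and the number of arrays limits the precision. All 10 genes were named, with pathway genes that passed (up to 4 per direction and comparison) or had large differences within their list, and Chac1 and Asns, which were picked after their values were seen. The genes and lists were chosen with earlier results of these data known. Alternatives were all 16 arrays, only the groups compared, array weights, quantile normalization, median centring, a trended robust prior, a filter on dim probe sets, 1 probe set per gene, a replicate block and leaving out each sample.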

Additional observations from a re-analysis of the deposited data

Results flagged for a closer look

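At the brightest probe sets of 5 of the 10 ER stress genes every AS sample lay on one side of the AA mean and every SS sample on the other side of the SA mean. In these 5 the AS samples were the lower and the SS samples the higher ones, an arrangement found at 2.25% of the brightest probe sets of all 18193 genes. In either direction the share was 5.12%. Over all probe sets of the 10 genes it held at 6 of 21, against 3.51% of all probe sets tested. The 5 genes were measured in the same samples, so they are not independent. The SA samples, low in several of these genes, are the baseline of the second effect. Other probe sets differed in sign, since the third of Hspa5 had 0.15 in AS minus AA and the dimmer of Ddit3 had -0.23 in SS minus SA. The difference between the 2 adult effects was 0.30 for Hspa5 (-0.19 against 0.10), 0.17 for Hsp90b1 (-0.09 against 0.08), 0.38 for Creld2 (-0.20 against 0.18), 0.17 for Xbp1 (-0.14 against 0.03) and 0.30 for Ddit3 (-0.10 against 0.20). None passed the interaction test (limma, adjusted p = 0.501, 0.637, 0.4, 0.633 and 0.425).

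Ppp1r15a was the pathway gene whose adult effects differed by the interaction test, at -0.97, with 1.13 after in-utero air and 0.16 after in-utero SHS (limma, adjusted p = 0.00822).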

How the results depend on the processing

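All alternatives gave the list medians within the spread between samples of a group (SD 0.082), and none reversed a called difference. With the averaged pairs split into all 16 arrays, 2 of 21 probe sets were called in AS minus AA and 1 in SS minus AA, and with array weights 1 in each. With a trended, robust prior 1 was called in SS minus AA. With 1 probe set per gene, 1 was called in SS minus SA and 2 with adult SHS averaged, since that fit holds 10 of the 21 probe sets. Leaving out single samples gave 0 to 1 calls in AS minus AA (1 without AS replicate 2), 1 to 2 in SS minus SA (1 without SS replicate 3) and 3 to 4 in the adult average. The cause of the changes under weights, prior and single samples was not tested. The fit with only the groups compared does not apply to the interaction and the averages. Signs of uncalled differences near 0 changed in some alternatives, among them Creld2 (10 of 22) and Hsp90b1 (7 of 22) in the adult average, mostly on leaving out a sample, and Pdia4 in AS minus AA (4 of 23).

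Same-numbered arrays of different groups had correlations of their deviations from -0.201 to 0.411, with 9 of 24 above 0.1. Differently numbered arrays were not compared, so whether replicate numbers pair samples was not tested. With the replicate block, 2 probe sets were called in SS minus SA and 3 in the adult average, where the dimmest Atf4 probe set was lost. Herpud1 had 0.48 in SS minus SA (limma, adjusted p = 0.0182).

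Over all probe sets, calls in AS minus AA numbered 699 and ranged over the alternatives from 47 (only the groups compared) to 3565 (16 arrays). In SS minus SA they numbered 737, from 171 (without SS replicate 3) to 2154 (array weights). In SS minus AS they numbered 436 (131 to 2214), in SS minus AA 180 (34 to 792), in the interaction 59 (23 to 330), in the adult average 2680 (1032 to 5771) and in the in-utero average 128 (32 to 511). Detection calls were not used here, so the reliability of differences at dim probe sets was not assessed.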

Other observations

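In SA, several chaperone genes, but not all, divided the samples the same way. Replicates 1 and 2 had 12.70 and 12.79 for Hspa5 against 13.05 and 13.03 in replicates 3 and 4, and 11.21 and 11.41 for Manf against 11.77 and 11.77. Among those that did not were Hyou1 (10.16, 9.56, 9.64 and 9.91 in replicates 1 to 4) and Hsp90b1 (12.58, 12.57, 12.52 and 12.66). The mean of the 10 ER stress genes relative to AA was -0.23 and -0.24 in replicates 1 and 2, and -0.03 and -0.08 in replicates 3 and 4. The cytosolic heat shock list was at -0.33 and -0.01, and at 0.25 and 0.18. Without SA replicate 1 or 2 in turn, the median of the 10 genes in SA minus AA stayed below 0. Over all fits that left out a sample it ran from -0.20 to -0.08. Each of these fits kept at least 1 of the 2 low replicates, so they do not show the median without both.

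The averaged AS pair held the highest Pdia4 (9.92) of all samples and a Sdf2l1 (8.72) well above the other AS samples (8.01 and 8.20), while its Hspa5 (12.85) and Xbp1 (12.87) were the lowest of AS.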
